A study of Bos indicus with 12 samples.

Results

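The endothelin and renin-angiotensin components of the corpus luteum (CL) form a group of 9 genes chosen by name: the ligand gene EDN1, its receptors EDNRA and EDNRB, the converting enzymes ECE1 and ECE2, angiotensin-converting enzyme ACE, the angiotensin II receptors AGTR1 and AGTR2, and the prorenin receptor ATP6AP2. All 9 had a row among the 15178 genes of the table. The CL came from Bos indicus cows on day 18, of which 6 were pregnant (P) and 6 non-pregnant (NP), with 1 poly-A RNA-seq library per cow. By the study's methods, the cows were non-lactating and had calved before, P cows were inseminated and had an embryo in the uterine flush, and NP cows were synchronized without insemination. P cows were also selected by interferon-stimulated gene expression and progesterone, and the samples sequenced were those with enough good RNA, so the groups are selected ones. The comparison sets a gland exposed to an embryo against one without, on the same day.

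Endothelins and angiotensin II are short peptides that constrict blood vessels. The EDN1 product is a precursor that endothelin-converting enzymes trim to the active peptide, which acts through the ETA receptor (EDNRA), mainly a constrictor on muscle cells, and the ETB receptor (EDNRB), which on endothelial cells also clears endothelin and releases nitric oxide. ACE makes angiotensin II from its precursor peptide, and angiotensin II acts mainly through the AT1 receptor (AGTR1), whereas the AT2 receptor (AGTR2) often opposes it. In the ruminant CL both peptides are known as local partners of prostaglandin F2A in luteal regression, where they lower progesterone output.

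Values are normalized counts unless said otherwise, that is reads per gene divided by a size factor for each library. Recovered reads came to 2038858 to 7534503 in P and 6148184 to 8253360 in NP libraries, and P cows 01, 18 and 28 had the fewest. No pair of libraries agreed within sampling noise. STAR, the cholesterol carrier of steroid-producing cells, was at 14806 to 60095 normalized counts over the 12 cows. Of 8 luteal steroidogenic markers, 0 were called by limma or by edgeR, with 0 higher and 1 lower at an unadjusted p under 0.05. HBB, an erythroid gene (20.5 in P and 7.73 in NP cows), and ITGA2B, a platelet gene (239.9 in P and 92.9 in NP cows), rose, and their part in the results was not tested. In bulk tissue, fewer cells of a type and less RNA per cell cannot be told apart. Each cow is 1 replicate.

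EDN1 and EDNRB were lower in the CL of P cows, and the other 6 genes that could be tested did not pass. On a scale of log2(normalized count + 1), EDN1 had a log2 fold change of -1.10 and EDNRB of -1.28, whereas EDNRA was at -0.09, ECE1 at -0.13, ECE2 at -0.65, ACE at 0.54, AGTR1 at 0.11 and ATP6AP2 at 0.09. Calls needed a Benjamini-Hochberg adjusted p from limma below 0.05 over all 11907 genes tested, and a change of 0.58 or more in either direction on the log2 scale. The 2 called members are 2 of 8, beside 26.8% of all tested genes called in either direction and 14.8% called lower in P cows, so this share is near the background. By edgeR with TMM the same 2 members were called, beside 14.6% of genes called lower. The groups overlapped in all 8 tested members, while 13.6% of all tested genes had groups that did not overlap. AGTR2 did not reach the minimum of 30 normalized counts in any cow and was not part of this fit.

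**Figure D1:**
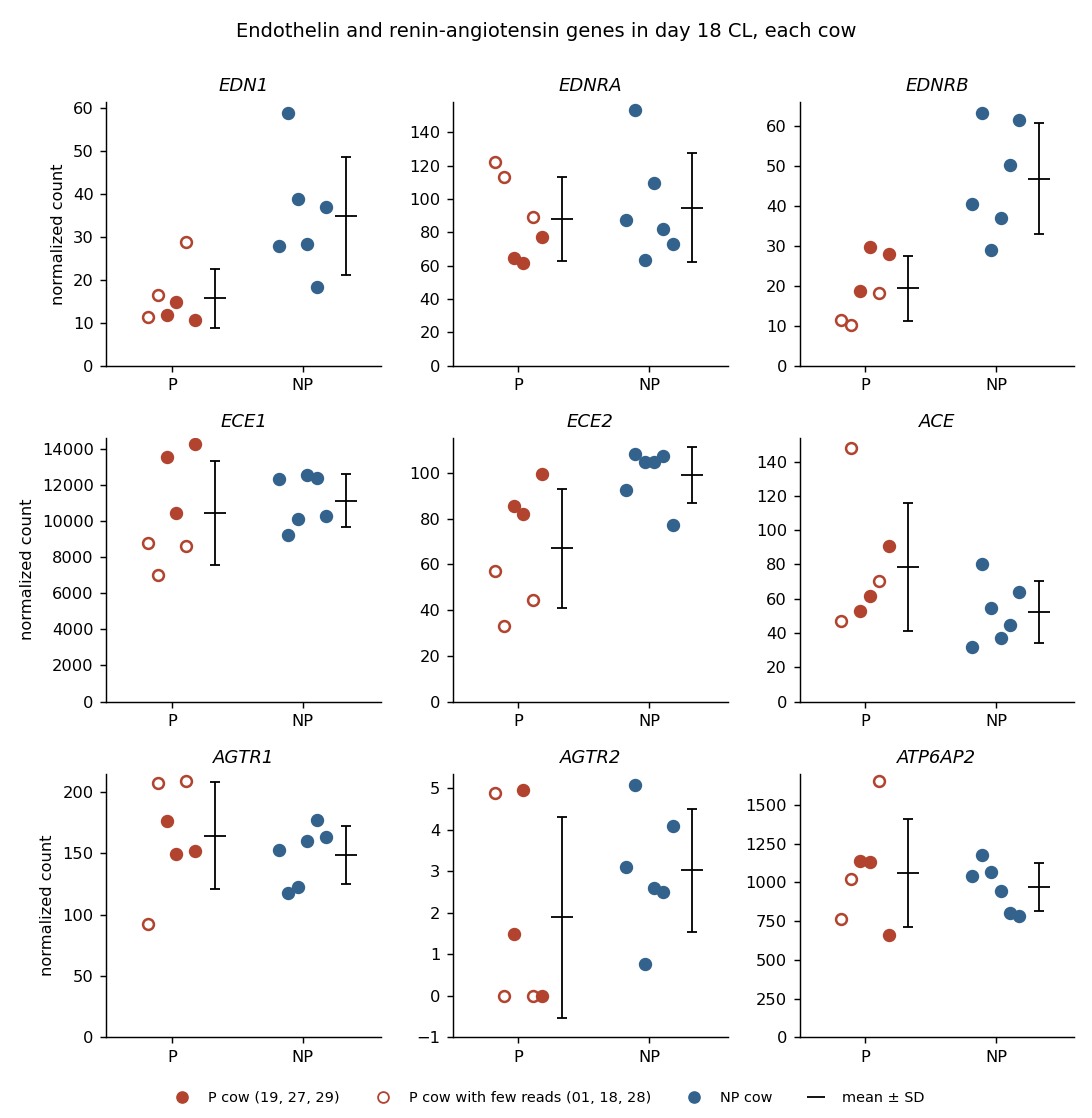
Normalized counts (y axis, from 0 except for AGTR2) of the 9 genes in each P and NP cow, with the mean and SD of the 6 cows beside each group; open circles are the P libraries of fewest reads (cows 01, 18 and 28). For EDN1, 5 of 6 P cows lie under every NP cow, and for EDNRB likewise 5 of 6, while the groups intermingle for EDNRA, AGTR1 and ATP6AP2. For ECE1, 3 P cows lie below and 2 above every NP cow.

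EDN1, the endothelin-1 precursor, was measured at a lowest, median and highest value of 10.7, 13.4 and 28.8 normalized counts in P cows, against 18.4, 32.7 and 59 in NP cows. P cow 28 was the only P cow within the NP range, and 3 NP cows lay above all P cows. The mean was 15.7 ± 6.77 in P and 34.9 ± 13.9 in NP cows (SD, n = 6 each), so that P cows had 44.9% of the NP mean (log2 fold change -1.10, SE 0.32, 95% interval -1.79 to -0.41, limma adjusted p = 0.0174). The gene rested on few reads, 7 to 16 per P library and 22 to 93 per NP library. In the P cows of higher depth (19, 27 and 29) EDN1 was at 10.7 to 14.8 normalized counts, and the log2 fold change without cows 01, 18 and 28 was -1.34 (limma adjusted p = 0.0304, beside 12.2% of all genes called in that comparison, 8.04% lower and 4.2% higher). Adjusting for log2 library total gave a change of -1.42, which missed the threshold (limma adjusted p = 0.0533, beside 4.28% of all genes called, 2.75% lower and 1.53% higher).

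EDNRB, the ETB receptor, had a lowest, median and highest value of 10.3, 18.5 and 29.7 normalized counts in P cows, against 28.9, 45.3 and 63.4 in NP cows. Only P cow 27, at 29.7, and NP cow 30, at 28.9, crossed over. P cows averaged 19.4 ± 8.11 and NP cows 46.9 ± 13.9 normalized counts (SD, n = 6 each), a log2 fold change of -1.28 (SE 0.31, 95% interval -1.94 to -0.62, limma adjusted p = 0.00657). EDNRB rested on few reads, 5 to 34 per P library and 38 to 100 per NP library, with 7, 5 and 7 in P cows 01, 18 and 28. Within the P group, EDNRB was at 10.3 to 18.3 in cows 01, 18 and 28 and at 18.6 to 29.7 in cows 19, 27 and 29. Without the first 3 of these cows the log2 fold change was -0.83 and the call was lost (limma adjusted p = 0.075), as it was after adjustment for library total (log2 fold change -0.93, limma adjusted p = 0.137).

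Endothelial cells are a usual source of EDN1 and carry EDNRB. Of 10 endothelial markers, 2 fell and 1 rose in P cows, a share near the 26.8% of all genes called, and none was at 0 in any cow. Without P cows 01, 18 and 28 again 2 fell and 1 rose (limma), beside only 12.2% of all genes called. PECAM1, an adhesion molecule of endothelial junctions, averaged 71.5 in P and 375.8 in NP cows (log2 fold change -2.56, limma adjusted p = 0.00134), and CDH5, the cadherin of the same junctions, 454 in P and 1007 in NP cows. EGFL7, a factor secreted by endothelium, averaged 3345 in P and 1419 in NP cows. The summed level of the 10 markers was 6743 to 14855 in P and 7559 to 12460 in NP cows, and the part of endothelial cell number in the EDN1 and EDNRB values was not tested.

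EDNRA, the ETA receptor, did not pass. It was at a lowest, median and highest value of 61.4, 83.2 and 122.2 normalized counts in P cows, against 63.1, 84.6 and 153.5 in NP cows, with both groups spread over the same range. The mean was 88 ± 25.1 in P and 94.7 ± 32.7 in NP cows (SD, n = 6 each), and the 95% interval of the log2 fold change ran from -0.59 to 0.41 (limma adjusted p = 0.783). P cows 01, 18 and 28 held the 3 highest P values (88.9 to 122.2), above cows 19, 27 and 29 (61.4 to 77.4), the reverse of the order seen for EDNRB. Without cows 01, 18 and 28 the log2 fold change of EDNRA was -0.42 (limma adjusted p = 0.272). Muscle cells and pericytes usually carry EDNRA, and of 10 markers of such mural cells 3 rose and 3 fell, beside 26.8% of all genes called, with a summed level of 6373 to 15793 in P and 5978 to 14961 in NP cows. Without P cows 01, 18 and 28, 0 of these markers rose and 1 fell (limma). Their part in the EDNRA value was not tested.

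The balance of the receptors was compared within each cow, as a log2 ratio, in which the size factor nearly cancels. The EDNRA to EDNRB ratio was 2.18 ± 0.97 in P and 0.99 ± 0.46 in NP cows (SD, n = 6 each), a difference of 1.19 on the log2 scale (two-sided exact permutation p = 0.0216, adjusted over 3 ratios p = 0.0325). P cows ranged from 1.02 in cow 27 to 3.34 in cow 18, against 0.24 to 1.54 in NP cows, and 4 P cows stood above all NP cows. The ratios of P cows 01, 18 and 28 rested on 7, 5 and 7 EDNRB reads. EDNRA had a log2 fold change of -0.09 and EDNRB of -1.28, so the ratio difference comes mainly from EDNRB and is not independent of its result. The difference was smaller without P cows 01, 18 and 28, at 0.41 (exact permutation p = 0.238, adjusted p = 0.298). The adjusted p was also above 0.05, short of the threshold, when any of P cows 01 and 18 or NP cows 05, 30, 32 and 42 was left out (exact permutation, adjusted p = 0.0519 to 0.0812). The difference was 0.96 to 1.21 in these settings.

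**Figure D2:**
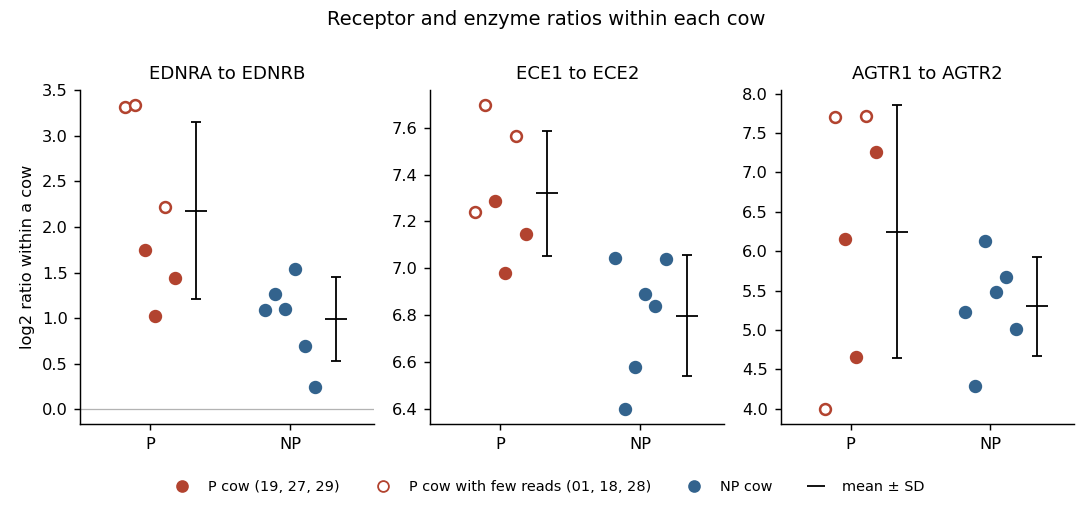
Log2 ratios of paired genes within each cow (y axis, log2 of the ratio of normalized counts plus 1), P left and NP right, with the mean and SD of 6 cows and a scale of its own in each panel. The EDNRA to EDNRB ratio lies at 1.02 to 3.34 in P and 0.24 to 1.54 in NP cows, with the open circles (P cows 01, 18 and 28) highest, and the AGTR1 to AGTR2 panel shows the wide spread that few AGTR2 reads give.

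The converting enzymes were measured at very different depth, with 3294 to 19371 reads per library for ECE1 and 16 to 171 for ECE2. ECE1, the main enzyme that releases active endothelin-1, had a lowest, median and highest value of 7032, 9626 and 14260 normalized counts in P cows, against 9228.5, 11300 and 12540 in NP cows. P cows lay on both sides of the NP range, with 3 below it and 2 above it. The log2 fold change was -0.13 (95% interval -0.53 to 0.27, limma adjusted p = 0.611), and the 3 P cows below were cows 01, 18 and 28.

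ECE2, a related enzyme that works at acidic pH, had a lowest, median and highest value of 32.9, 69.6 and 99.7 normalized counts in P cows, against 77.2, 104.9 and 108.4 in NP cows. Its log2 fold change of -0.65 (SE 0.25, 95% interval -1.18 to -0.13) was just short of the threshold (limma adjusted p = 0.0522). The 3 P cows under the NP range were again cows 01, 18 and 28 (32.9 to 57), whereas cows 19, 27 and 29 were at 82.1 to 99.7. Without cows 01, 18 and 28 the log2 fold change was -0.15 (limma adjusted p = 0.558). ECE2 was called when any of P cows 19, 27 and 29 or NP cow 42 was left out (limma adjusted p = 0.0265 to 0.0489), and when all libraries were thinned to 2038858 reads (-0.79, limma adjusted p = 0.0372).

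A further Ensembl gene carries the symbol ECE2. It averaged 44.6 ± 19.6 in P and 58.2 ± 15.8 in NP cows (SD, n = 6 each) and did not pass (log2 fold change -0.45, limma adjusted p = 0.251). Reads of near-identical sequence could be split between these rows, so that the level of each is uncertain. In the RefSeq annotation of the NIAB-ARS_B.indTharparkar_mat_pri_1.0 assembly, which is not the one used for mapping, the protein-coding gene CAMK2N2 overlaps ECE2, and the protein-coding gene SLC6A14 overlaps AGTR2. Noncoding RNA genes overlap EDNRA, ECE1 and ACE there.

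The ECE1 to ECE2 ratio within a cow was higher in P cows, at 7.32 ± 0.27 against 6.80 ± 0.26 in NP cows (SD, n = 6 each), a difference of 0.52 on the log2 scale (two-sided exact permutation p = 0.00649, adjusted over 3 ratios p = 0.0195). P cows ranged from 6.98 to 7.70 and NP cows from 6.40 to 7.04, so that 5 of 6 P cows were above all NP cows. ECE1 had a log2 fold change of -0.13 and ECE2 of -0.65, so the ratio difference comes mainly from ECE2. The difference held when each cow in turn was left out (0.44 to 0.59, exact permutation, adjusted p = 0.00649 to 0.039) and was 0.34 without P cows 01, 18 and 28 (exact permutation p = 0.0952, adjusted p = 0.286).

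ACE, which makes angiotensin II and is anchored on endothelium, had a lowest, median and highest value of 47.2, 66 and 148.1 normalized counts in P cows, against 31.9, 49.6 and 80.5 in NP cows. The groups overlapped, although P cows 18 and 29 lay above all NP cows and 3 NP cows lay below all P cows. The mean was 78.5 ± 37.3 in P and 52.1 ± 18.2 in NP cows (SD, n = 6 each), and the log2 fold change of 0.54 did not pass (95% interval -0.08 to 1.16, limma adjusted p = 0.156). P cow 18 carried part of this value, and without it the log2 fold change was 0.34 (limma adjusted p = 0.332).

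AGTR1, the main angiotensin II receptor, had a lowest, median and highest value of 92.8, 164.1 and 209.1 normalized counts in P cows, against 118, 156.2 and 177.6 in NP cows. P cow 01 was the lowest of all 12 cows, and P cows 18 and 28 were the highest. The 95% interval of the log2 fold change of 0.11 ran from -0.30 to 0.52 (limma adjusted p = 0.679), which leaves room for changes of up to 1.44-fold higher and down to 0.811 of the NP level in P cows.

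AGTR2, the receptor that often opposes AGTR1, was close to the limit of detection. P cows had 0 to 5 reads and NP cows 1 to 8 reads per library, and 3 P cows (18, 28 and 29) had none. The mean was 1.89 ± 2.42 in P and 3.02 ± 1.48 in NP cows (SD, n = 6 each), which did not differ beyond the spread between cows (difference -1.14, two-sided exact permutation p = 0.331). The AGTR1 to AGTR2 ratio, 6.25 ± 1.61 in P and 5.30 ± 0.63 in NP cows on the log2 scale, differed by 0.95 (exact permutation p = 0.199, n = 6 each) and rested on these few AGTR2 reads. At this depth a difference in AGTR2 was not detectable.

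ATP6AP2, which binds prorenin and is also an accessory subunit of the vacuolar proton pump, had a lowest, median and highest value of 661.4, 1077 and 1652 normalized counts in P cows, against 783.8, 992.7 and 1178 in NP cows. The P range enclosed the NP range. The log2 fold change was 0.09 (SE 0.19, 95% interval -0.33 to 0.50, limma adjusted p = 0.75), and it was between -0.05 and 0.21 when each cow in turn was left out.

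**Figure D3:**
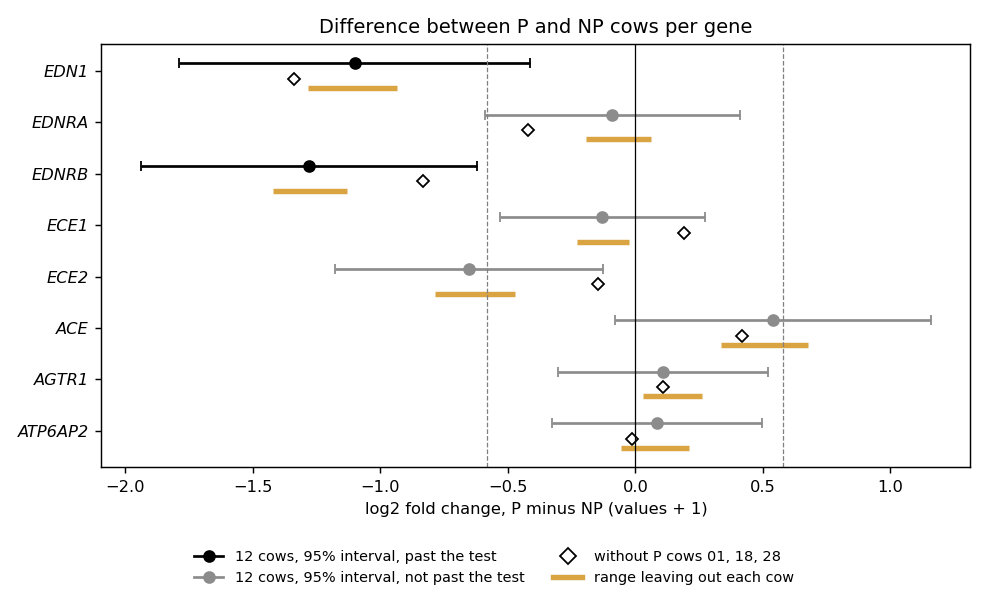
Log2 fold change of P over NP cows (x axis, normalized counts plus 1) for the 8 tested members, with the 95% limma interval; open diamonds leave out P cows 01, 18 and 28, ochre bars span the values with each cow left out in turn, and dashed lines mark a log2 fold change of 0.58. EDN1 and EDNRB lie at -1.10 and -1.28, and ECE2 is at -0.65 with all 12 cows and -0.15 without the 3 libraries.

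Spread among the P cows was wider than among the NP cows for several members. The coefficient of variation was 27.7% in P and 12.9% in NP cows for ECE1, 39% in P and 12.3% in NP cows for ECE2, and 32.8% in P and 16.1% in NP cows for ATP6AP2. For EDN1 it was 43.2% in P and 39.7% in NP cows. A test of the spread itself was not run.

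Relations between members were computed within each group of 6 cows, 56 in all, and none passed after adjustment, while 7 had an unadjusted exact permutation p under 0.05 for Pearson's r, 3 in P and 4 in NP cows. ECE1 and ECE2 followed each other in P cows (Pearson r = 0.95, exact permutation p = 0.00694, adjusted p = 0.246, Spearman correlation 1, exact permutation p = 0.00278, adjusted p = 0.156), with r = 0.97 when the 2 cows farthest from the median were left out. In NP cows the same pair had r = 0.07 and a Spearman correlation of -0.31 (exact permutation p = 0.953 and 0.564, adjusted p = 0.984 and 0.81), and the difference between groups was not tested. EDNRA and EDNRB ran in opposite directions in P cows (r = -0.86, exact permutation p = 0.0264, adjusted p = 0.246, Spearman correlation -0.89, exact permutation p = 0.0333, adjusted p = 0.48), a relation that rested on the 2 farthest cows, since r was -0.40 without them. In NP cows this pair had r = 0.47 and a Spearman correlation of 0.43 (exact permutation p = 0.369 and 0.419, adjusted p = 0.772 and 0.81), with r = -0.91 without the 2 farthest cows. The NP pairs with an unadjusted p under 0.05 were EDN1 with ECE1 (r = -0.90, and -0.99 without the 2 farthest cows), EDN1 with AGTR1 (-0.85, and -0.53), ECE1 with ACE (-0.93, and -0.85) and AGTR1 with ATP6AP2 (-0.87, and -0.81). The remaining P pair was EDN1 with ATP6AP2 (0.86, and 0.46 without the 2 farthest cows). For these 5 pairs the adjusted exact permutation p of r was 0.246 to 0.267 and that of the Spearman correlation 0.467 to 0.48. The library totals differ among these P cows as well, and their part in both relations was not tested.

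Genes with the most similar pattern to a member were sought by the Pearson correlation of deviations from the group mean over the 12 cows, among 7111 candidates with a mean of at least 100 normalized counts. These are the highest of many values and are a description only, and all points share the libraries and their depth. EDNRB was close to TGFBR2, a receptor for transforming growth factor beta (0.95), and to XBP1, a factor of the unfolded protein response (0.88). EDN1 was nearest to TMOD3, which caps actin filaments (0.90), INHBB, an inhibin and activin subunit (0.86), and the stress gene GADD45A (0.85). ACE was nearest to ELF2 (0.89), CPSF7 (0.89) and SOX17, a transcription factor of arterial endothelium (0.87). EDNRA was nearest to EPHB4, an ephrin receptor of venous endothelium (0.85), DNTTIP2 (0.84) and LSM14B (0.82). ECE1 was nearest to CLPTM1L, TMEM254 and ZDHHC9 (each 0.91), and ECE2 to BBS2 (0.93), PLOD3 (0.93) and DOHH (0.92). AGTR1 was nearest to SMIM19 (0.91), ASNSD1 (0.89) and TRIM8 (0.88), and ATP6AP2 to RNF145 (0.95), BTBD10 (0.94) and RTCA (0.92).

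Other genes of the endothelin system were few. Of 9 listed ligands and processing enzymes, 3 were tested, of which 1 rose and 0 fell, 33.3% beside 26.8% of all genes (limma, with 0 lower at an unadjusted p under 0.05 and 0 by edgeR). PCSK7, a proprotein convertase, averaged 486.5 ± 100 in P and 315.9 ± 50.3 in NP cows (SD, n = 6 each, log2 fold change 0.61, limma adjusted p = 0.00742), with every P cow above every NP cow. PCSK7 had the smallest p of the 3 tested genes, beside 13.6% of all tested genes without overlap. Its change was under the fold minimum without P cow 01 (0.52), NP cow 05 (0.57) or NP cow 22 (0.54), and PCSK7 also missed the adjusted p without P cows 01, 18 and 28 (0.45, limma adjusted p = 0.0779). FURIN, the convertase that cuts the endothelin precursor, was at -0.13 (limma adjusted p = 0.586), and MME, a peptidase that degrades endothelin, at -0.16 (limma adjusted p = 0.824). The ligand genes EDN2 and EDN3 had no row under these symbols and could not be tested.

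In the wider renin-angiotensin system, 18 of 25 listed genes were tested, of which 1 rose and 2 fell, 16.7% beside 26.8% of all genes. CTSD, an acid protease that can cleave angiotensinogen, averaged 4188 ± 1124 in P and 8020 ± 447 in NP cows (SD, n = 6 each, log2 fold change -0.98, limma adjusted p = 0.00134), and CTSA, a lysosomal carboxypeptidase, 407 ± 182 in P and 1037 ± 111 in NP cows (log2 fold change -1.48, limma adjusted p = 0.00154). Both genes had every P cow below every NP cow and were still called without P cows 01, 18 and 28 (-0.68 and -0.89). They ranked 1 and 2 by p in the list, and 13.6% of all tested genes had groups that did not overlap. CTSD and CTSA are lysosomal proteases with many substrates. ARRB2, an arrestin that ends and redirects receptor signals, averaged 282.2 ± 100 in P and 162.7 ± 39.2 in NP cows (log2 fold change 0.75, limma adjusted p = 0.0225), a call lost without the 3 cows (0.42, limma adjusted p = 0.236) and also without P cow 18 or 28 or NP cow 22 alone (limma adjusted p = 0.0509 to 0.0533). DPP3, which degrades angiotensins, was at -0.56 (limma adjusted p = 0.0143), short of the fold minimum.

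Downstream of the ETA and AT1 receptors, 3 of 32 tested genes of receptor signalling rose and 8 fell, which is 34.4% beside 26.8% of all genes, with a median log2 fold change of -0.21 against -0.01 over all genes. ITPR1, the calcium channel opened by inositol trisphosphate, averaged 65.8 ± 34.2 in P and 328.3 ± 195 in NP cows (SD, n = 6 each, log2 fold change -2.22, limma adjusted p = 0.0014). ARHGEF1, a guanine nucleotide exchange factor, went the other way, at 1391 ± 397 in P and 679.3 ± 99.9 in NP cows (log2 fold change 1.00, limma adjusted p = 0.00151). The kinase genes ROCK1, at 132.4 ± 31.3 in P and 258.6 ± 62.6 in NP cows, and ROCK2, at 52.1 ± 14.7 in P and 132.1 ± 56.2 in NP cows, had log2 fold changes of -0.96 and -1.28 (limma adjusted p = 0.00191 and 0.00317). These are the 4 genes of smallest p in the list, a choice that favours groups without overlap and calls that last. In these 4 genes the groups did not overlap, beside 13.6% of all tested genes. All 4 were still called without P cows 01, 18 and 28. In that setting the list had 2 genes higher and 4 lower, beside 4.2% of all genes called higher and 8.04% called lower.

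Among 17 tested genes of other vasoactive peptides and nitric oxide, 0 rose and 1 fell, 5.88% beside 26.8% of all genes (limma, with 2 higher and 2 lower at an unadjusted p under 0.05, and 1 higher and 1 lower by edgeR). At an unadjusted p under 0.05, 2649 of all 11907 genes tested were higher and 2846 lower (limma). PDE5A, which breaks down cyclic GMP, averaged 43.4 ± 17.1 in P and 88.4 ± 23.6 in NP cows (SD, n = 6 each, log2 fold change -1.05, limma adjusted p = 0.00655), a call lost without P cows 01, 18 and 28 (-0.65, limma adjusted p = 0.0883). CAV1, a coat protein of caveolae, was at -0.50 (limma adjusted p = 0.056) and the natriuretic peptide receptor gene NPR2 at 0.35 (limma adjusted p = 0.0887). The vasopressin receptor gene AVPR1A, at 43.9 ± 34.5 in P and 12.2 ± 7.84 in NP cows, did not pass by limma (log2 fold change 1.47, adjusted p = 0.108) and was called by edgeR with TMM (1.87, adjusted p = 0.0219). It was also called by DESeq2 (1.88, adjusted p = 0.00534) and limma-voom (1.89, adjusted p = 0.0356). With each cow left out in turn, its limma adjusted p was 0.0104 to 0.218. NOS3, the endothelial nitric oxide synthase, was picked after its value was seen and was at 0.16 (limma adjusted p = 0.576).

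For factors known in mammals to act on EDN1 transcription, 6 of 19 tested genes fell and 0 rose (limma, with 1 higher and 11 lower at an unadjusted p under 0.05, and 1 higher and 6 lower by edgeR), 31.6% beside 26.8% of all genes, with a median log2 fold change of -0.50. Over all 11907 genes tested, 2649 were higher and 2846 lower at an unadjusted p under 0.05 (limma), and 14.8% were called lower. SMAD3, a transducer of transforming growth factor beta, averaged 10.6 ± 6.52 in P and 30.7 ± 10.3 in NP cows (SD, n = 6 each, log2 fold change -1.61, limma adjusted p = 0.00859), and TGFBR2 471.7 ± 174.5 in P and 1009 ± 294 in NP cows (log2 fold change -1.14, limma adjusted p = 0.00438). HIF1A, which responds to low oxygen and is known to raise EDN1, was at -0.73 (limma adjusted p = 0.00604), and VHL, which marks HIF1A for breakdown, averaged 9.63 ± 3.73 in P and 38.2 ± 12.1 in NP cows (log2 fold change -1.92, limma adjusted p = 0.00132). Without P cows 01, 18 and 28 the list had 4 genes that fell, beside 8.04% of all genes, and TGFBR2 was no longer called (-0.68, limma adjusted p = 0.0571). After adjustment for library total VHL was still called, while TGFBR2, HIF1A and SMAD3 were not (limma adjusted p = 0.126, 0.0669 and 0.163). VHL and SMAD3 were low in P cows (means of 9.63 and 10.6 normalized counts) and were not tested in thinned libraries.

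**Figure D4:**
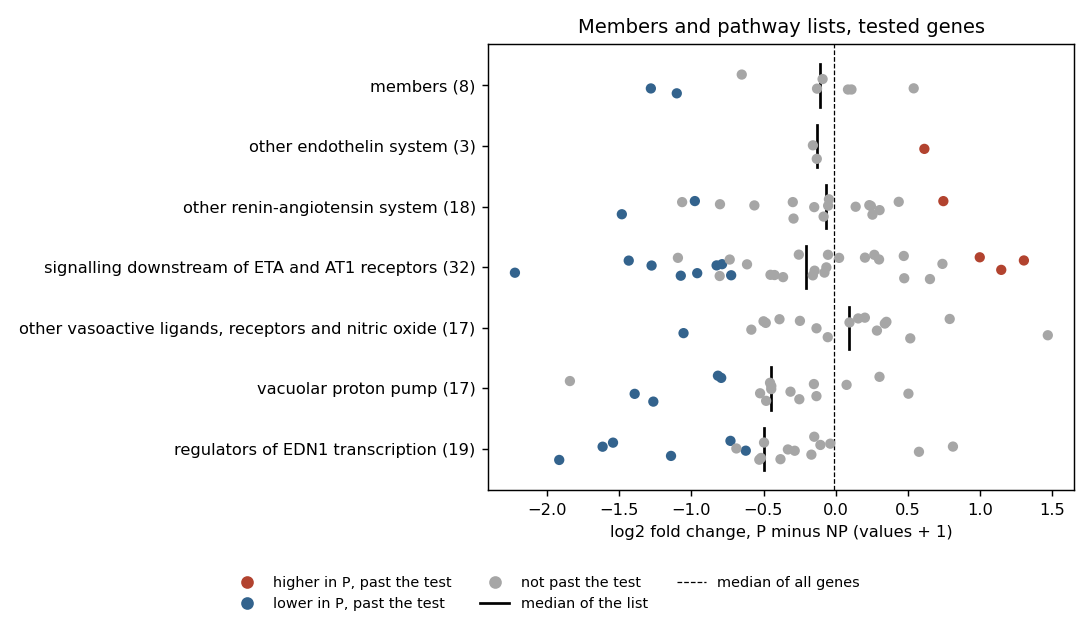
Log2 fold change of P over NP cows (x axis) of the tested members and of the tested genes of 6 related lists (number of genes in brackets; points are spread vertically only to separate them), with the median of each list and, dashed, of all 11907 genes. Medians range from -0.50 for regulators of EDN1 transcription to 0.10 for other vasoactive genes, against -0.01 over all genes.

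The vacuolar proton pump, to which the ATP6AP2 product belongs, had 17 tested subunits, of which 4 fell and 0 rose (limma, with 1 higher and 10 lower at an unadjusted p under 0.05, and 0 higher and 4 lower by edgeR), 23.5% beside 26.8% of all genes. Of all 11907 genes tested, 2649 were higher and 2846 lower at an unadjusted p under 0.05 (limma), and 14.8% were called lower. The other accessory subunit gene, ATP6AP1, averaged 942 ± 330 in P and 2367 ± 364 in NP cows (SD, n = 6 each, log2 fold change -1.39, limma adjusted p = 0.00093), without overlap of the groups. It had the smallest p of the list, and 13.6% of all tested genes had groups that did not overlap. ATP6V1A, the catalytic subunit, averaged 155.9 ± 74.6 in P and 335.6 ± 49.2 in NP cows, ATP6V0A2 49.3 ± 13.6 in P and 86.8 ± 19.9 in NP cows (log2 fold changes -1.26 and -0.82, limma adjusted p = 0.00606 and 0.0122). ATP6V1F was at 0.50 (limma adjusted p = 0.0203), short of the fold minimum. The ATP6V0A2 call was lost without P cows 01, 18 and 28 (-0.48, limma adjusted p = 0.151), and after adjustment for library total ATP6V1A was at -0.63 and no longer called (limma adjusted p = 0.182).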

How the data were processed

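Per the paper's methods, the authors trimmed single-end poly-A reads with cutadapt, mapped them with STAR (2.4.2a in the submitters' processing notes) to ARS-UCD1.2, a Bos taurus assembly, and used htseq-count for reads per Ensembl gene. The deposited signal values are these counts divided by DESeq2 size factors, and columns of the authors' own fold changes and p-values were not used. Reads were recovered as multiples of 1 step per library (at least 99.9868% whole within 0.0051). The step of cow 27 was 0.989, close to 1, where a general check of units could not tell recovered reads apart, and 99.9868% of its values were whole at that step. Where a symbol repeats, the row of highest mean was used.

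The 11907 genes that reached 30 in any cow were fitted as log2(value + 1) in limma (version 3.58.1, on R 4.3.3), using its trended variance, and this step was tested on simulated data. Single values were compared by exact permutation over all splits of the cows (924 for 6 against 6). P-values for P against NP weigh the difference between the groups against the spread between cows.

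Among other settings tried were edgeR 4.0.16, either with TMM or relative log expression, DESeq2 1.42.0 and limma-voom on recovered reads, other pseudocounts (0.5 and 5) and filters, no fold minimum, 1 surrogate variable (sva 3.50.0), the log2 library total as a covariate, thinned libraries, and leaving out cows. The other ECE2 row was added after the data were seen. Members and gene lists were chosen with earlier results of these data known. Named genes are the members, the 4 genes of smallest p in each list, the called genes of the endothelin and renin-angiotensin lists, the 3 genes nearest to each member, and, as study controls, the housekeeping genes GAPDH (log2 fold change -0.14, limma adjusted p = 0.543) and RPS26 (0.22, limma adjusted p = 0.288). No sequence or genome of the mapping assembly was used here. Some genes that this rule names are not reported here. The cell type markers named (STAR, HBB, ITGA2B, PECAM1, CDH5 and EGFL7) come from fixed marker lists and were picked from these after their values were seen.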

Additional observations from a re-analysis of the deposited data

Results flagged for a closer look

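EDN1 in P cow 28, at 28.75 normalized counts, stood apart from the other P cows, with a gap to the next cow of 0.682 of the range of the group. It is the P library of fewest reads, and the value rests on 11 reads. Without this cow the log2 fold change of EDN1 was -1.28 (limma adjusted p = 0.00944). Of 26 sets of 6 values examined in this way (9 members and 4 ratios in each group) this was the only one to stand out, and chance alone marks about 1 in 20.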

How the results depend on the processing

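Of 26 alternatives, all that could test EDNRB kept its direction, and the call was lost without P cows 01, 18 and 28 and with the library total as a covariate. EDN1 lost its call only with that covariate, and it was too low to be tested with a filter at 60 and in thinned libraries. The count of called members was 1 with a filter at 60, 1 without P cows 01, 18 and 28, 2 in thinned libraries (EDNRB and ECE2) and 0 with the covariate (limma, with EDN1 and EDNRB at an unadjusted p under 0.05 there), against 2 by edgeR, DESeq2 and limma-voom. The count of all called genes was 3197, and it was 1410 without P cows 01, 18 and 28 and 510 with the covariate, which is partly confounded with the groups. Of the called genes named from the pathway lists, PCSK7, ARRB2, ROCK2, PDE5A, ATP6V1A, ATP6V0A2, TGFBR2, HIF1A and SMAD3 also lost their calls with the covariate (limma adjusted p = 0.0669 to 0.435). Leaving out each cow gave 2493 to 3562 called genes, and 2 to 3 called members. The EDNRA to EDNRB difference was 0.96 to 1.42 when each cow was left out, 1.10 in thinned libraries (exact permutation, adjusted p = 0.0714) and 0.41 without P cows 01, 18 and 28, and the ECE1 to ECE2 difference was 0.34 without these cows. The low reads of EDN1, EDNRB and AGTR2 limit their precision. No paired analysis was possible because the cow numbers of the groups share no number.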

Other observations

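The accessory subunits of the vacuolar proton pump were set against each other after their values were seen, so this is a description with no test. The log2 ratio of ATP6AP2 to ATP6AP1 within a cow was -0.77 to 1.10 in P and -1.58 to -0.96 in NP cows, without overlap. Means were 0.19 ± 0.68 in P and -1.29 ± 0.22 in NP cows (SD, n = 6 each), a difference of 1.48 on the log2 scale, which was 1.30 to 1.67 when each cow was left out and 0.93 without P cows 01, 18 and 28. ATP6AP2 had a log2 fold change of 0.09 and ATP6AP1 of -1.39, so the difference comes mainly from ATP6AP1.

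Several members divided the P cows along the same line as library depth. In P cows 01, 18 and 28, against P cows 19, 27 and 29, ECE2 averaged 44.8 and 89.2 normalized counts, ECE1 8137 and 12765, EDNRB 13.3 and 25.4, and EDNRA 108 and 67.9. NP means were 99.2 for ECE2, 11150 for ECE1, 46.9 for EDNRB and 94.7 for EDNRA. EDN1 was at 18.9 and 12.5 in the same sets of P cows, beside 34.9 in NP cows. These sets were made by depth, and the part of depth in the values was not tested. How many of all genes divide the P cows in this way was not counted. The split is therefore not shown to be particular to these members.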
